A study of Mus musculus with 6 samples.

Results

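The genes of the tumor necrosis factor (TNF) superfamily, which encode ligands, and of the TNF receptor superfamily were described in LSK cells, the lineage-negative, cKit-positive and Sca1-positive fraction of bone marrow that holds hematopoietic stem cells and early progenitors. Members were chosen by symbol, as every gene whose name begins with Tnfrsf or Tnfsf and a digit, together with Tnf, Lta, Ltb, Ltbr, Cd40, Cd40lg, Fas, Fasl, Ngfr and Cd70. This gave 37 of 18193 genes measured, namely 13 ligands, 23 receptors and Tnfsf13os, a long noncoding RNA on the opposite strand of a ligand gene that shares only the name. RefSeq lists 42 mouse symbols that match, and the other 5, Tnfrsf26, Tnfsf12, Tnfsf13, Tnfsf15 and Tnfsf18, were not analysed here.

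The 6 samples were 3 N1IC and 3 WT, taken as separate mice, all 5 weeks old, with 1 Affymetrix array each. The titles of WT replicates 1 and 2 add a letter b after the number, which the labels do not explain. N1IC mice carried Mx1-cre and a lox-stop-lox allele of N1-IC, which lets Cre switch on the active inner part of Notch1. WT mice carried Mx1-cre alone. All mice received 3 injections of polyIC from 21 days of age, 20 mcg per g of body weight each, and were analysed 2 weeks after the last. PolyIC induces interferon, which drives Mx1-cre, so both groups had been exposed to it, and this promoter acts in many cell types, not in LSK cells alone. The labels' treatment text speaks of floxed Ncstn alleles instead, and the groups follow the genotype labels. All 3 N1IC mice were female, against 1 female and 2 males in WT, with WT replicate 2 the female. Nothing in the labels pairs the mice.

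Values are log2 probe set intensities, 1 probe set per gene (the brightest), and each log2 fold change subtracts the mean of WT from that of N1IC. It was tested with limma over all 18193 genes at an adjusted p of 0.05 (Benjamini-Hochberg). Array medians lay between 6.47 and 6.53 and lower quartiles between 4.43 and 4.49, so values near the lower quartile are dim. WT replicate 1 stood apart from the other 5 arrays on the second principal component, which held 15.4% of the variance, while the first held 57.9% and separated the groups. Kit, which encodes 1 of the markers that define the fraction, stood at 11.51 ± 0.06 in N1IC and 11.76 ± 0.18 in WT (SD, n = 3). The progenitor list did not hold the gene of Sca1. Of its 7 measured markers 4 fell in N1IC, namely Cd34, Gata2, Slamf1 and Procr, where 8.31% of all genes fell. Markers of lymphoid lineages also differed. The T-lineage list rose in 8 of 11 genes, where 3.47% of all genes rose. Its summed linear intensities were 28634 to 33618 in N1IC against 2143 to 3964 in WT. The B-lineage list fell in 6 of 8, with sums of 3487 to 3998 in N1IC against 16497 to 26546 in WT. No marker is at 0 on this intensity scale. In bulk RNA, fewer cells of a type and less RNA per cell cannot be told apart.

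Ligands of the TNF superfamily are mostly membrane-bound trimers that bind receptors with cysteine-rich outer domains. Death receptors carry a cytoplasmic death domain that recruits adaptors such as Tradd and Fadd and can activate caspases. Other receptors bind TRAF proteins and lead to NF-kB, and decoy receptors bind ligand without passing on a signal. In blood formation these genes are known for control of lymphocyte survival, costimulation of T cells, and effects of TNF on stem cells.

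Of the 37 members, 3 rose and 6 fell in N1IC. The ligand Fasl rose 5.97-fold, the decoy receptor Tnfrsf23 rose 3.12-fold and the ligand Tnfsf10 rose 1.43-fold. The receptor Tnfrsf13c was 7.14-fold lower, Tnfrsf1a 2.56-fold, the ligand Tnfsf14 2.50-fold, Fas 2.43-fold, Ltbr 1.72-fold and Tnfrsf13b 1.37-fold lower. The members that rose made up 8.11% of the superfamilies, where 3.47% of all genes rose, and those that fell made up 16.2%, where 8.31% of all genes fell. N1IC and WT arrays did not overlap in 17 of 37 members, or 45.9%, where 32.8% of all genes did not. N1IC lay above WT in 7 of these, where it did in 13.1% of all genes, and below in 10, where it did in 19.7%. The median log2 fold change was -0.06 over the members and -0.01 over all genes, so the members had no common direction, while the median absolute log2 fold change was 0.39 over the members and 0.16 over all genes. The members also varied more within groups, with a median SD of 0.28 in N1IC and 0.25 in WT, against 0.13 in N1IC and 0.14 in WT over all genes.

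Among the 9 called members, only Fasl and Tnfrsf13c kept their call when the sex label was added as a covariate. That fit sets the N1IC arrays against WT replicate 2 alone, the only WT female, so lost calls there do not measure an effect of sex. Fasl, Tnfrsf13c and Tnfrsf1a kept their calls in each of 6 fits that left out 1 array, and the other 6 called members lost theirs in at least 3 of these fits. The plot of the called members by array shows the distance between the groups for each.

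**Figure D1:**
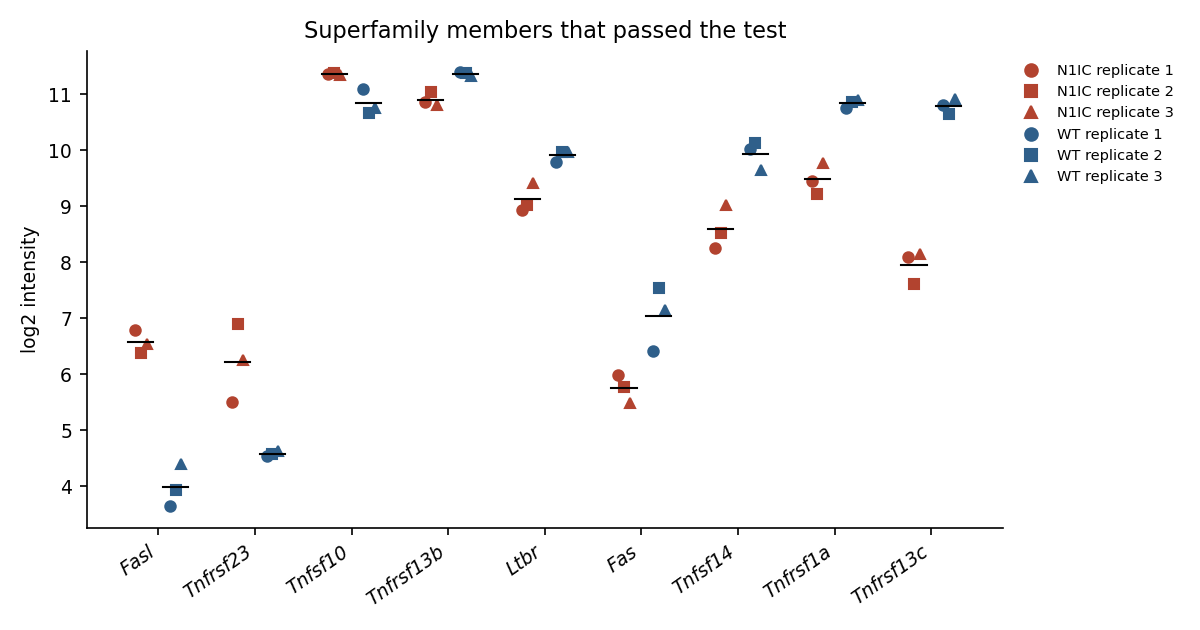
Log2 intensity (vertical axis) of the 9 called members on each array, N1IC in red left of WT in blue, with marker shapes for replicates 1 to 3 and a black line at each group mean. All 9 keep the groups apart, and the gap is widest for Tnfrsf13c (-2.84) and Fasl (2.58), while Tnfsf10 and Tnfrsf13b differ by about 0.51 and 0.46 log2 units.

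Log2 fold changes of the ligands ran from -1.75 for Lta to 2.58 for Fasl. Fasl encodes the Fas ligand, with which cytotoxic lymphocytes induce cell death in cells that bear Fas. It stood at 6.78, 6.38 and 6.53 in N1IC, against 3.64, 3.93 and 4.39 in WT. Every N1IC array was thus at least 1.99 log2 units above every WT array, and the WT values lay below the arrays' lower quartile. N1IC minus WT came to 2.58 ± 0.21 (SE, n = 3, 95% interval 2.06 to 3.09, limma adjusted p = 0.00191). A second Fasl probe set gave 5.78, 5.88 and 5.63 in N1IC, against 3.88, 4.2 and 3.78 in WT, with a log2 fold change of 1.82. With log2(value + 16) in place of log2 the change of the first probe set was 1.79. The sex term left it at 2.63 (limma adjusted p = 0.0331, and 0.00049 to 0.0331 over all alternatives).

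Markers of cell types known for Fasl were set beside it. The T-lineage list was higher in N1IC in 8 of its 11 genes, as given above. The other 3 did not pass, with Cd4 at -0.62, Cd8a at -1.18 and Cd8b1 at 0.98. Of 5 natural killer cell markers none rose and none fell by limma (1 had an unadjusted p under 0.05). All 5 had negative log2 fold changes, with a median of -1.74, and the brightest, Prf1, stood at -0.01. Their summed intensity was 1381 to 1518 in N1IC against 1309 to 3471 in WT. The part of either cell type in the level of Fasl was not tested.

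Tnfsf10, which encodes TRAIL, a death-inducing ligand known to respond to interferon, stood at 11.35, 11.37 and 11.34 in N1IC, against 11.09, 10.67 and 10.75 in WT. The N1IC arrays were nearly identical, and the lowest of them was above the highest WT array, replicate 1. The difference in log2 level was 0.51 ± 0.12 (SE, n = 3), and its adjusted p of 0.0493 by limma was just inside the threshold. Both dimmer probe sets pointed the same way, at 0.86 and 0.60. Leaving out WT replicate 1 gave 0.64 and an adjusted p of 0.0128, but leaving out any other array ended the call (0.43 to 0.64 over the 6 fits, limma adjusted p up to 0.143). It was also lost with repeated quantile normalization, median centring, the replicate block, a robust prior, the mean of all probe sets and separate tests of each probe set. Fitted with sex, Tnfsf10 stood at 0.68 (limma adjusted p = 0.114, and 0.0128 to 0.143 over all alternatives).

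Tnfsf14 encodes a ligand of lymphotoxin beta receptor and of Tnfrsf14. It stood at 8.26, 8.52 and 9.02 in N1IC, against 10.01, 10.12 and 9.64 in WT, with no overlap. Between groups the log2 shift was -1.32 ± 0.23 (SE, n = 3, limma adjusted p = 0.0183), and a second probe set gave -0.89. The call was lost without N1IC replicate 1, N1IC replicate 2 or WT replicate 2, under the replicate block, and when sex was fitted, where it stood at -1.52 (limma adjusted p = 0.0986). Its value without 1 array ranged from -1.53 to -1.15, with adjusted p between 0.0163 and 0.062 by limma.

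None of the 10 other ligands passed the test. In 3 of them the groups did not overlap, where this held for 3823 of the 16049 genes that did not pass. Tnfsf11 encodes RANKL, the ligand that drives osteoclast formation and takes part in lymphoid organ development. It was high on all N1IC arrays, at 10.35, 11.78 and 10.58, and spread over WT, at 7.49, 8.96 and 9.34. The log2 fold change was 2.30 ± 0.59 (SE, n = 3), nearly that of Fasl, but the wide spread left the adjusted p at 0.0594 by limma. A dimmer Tnfsf11 probe set, at 6.26, 7.89 and 6.76 in N1IC, against 4.32, 4.92 and 5.41 in WT, gave 2.09 and passed when each probe set was tested on its own (limma adjusted p = 0.0454). Over all alternatives the adjusted p of Tnfsf11 lay between 0.0371 and 0.361 by limma, and 4 of 19 passed.

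Tnf, the cytokine that names the family, stood at 8.71, 7.81 and 9.96 in N1IC, against 6.68, 7.49 and 7.81 in WT. N1IC replicate 2 lay level with WT replicate 3, and N1IC replicate 3 was the highest. N1IC minus WT came to 1.5 with a 95% interval of 0.08 to 2.92, and the adjusted p was 0.167 by limma. Lta encodes lymphotoxin alpha, which binds the same receptors as TNF. It stood at 4.95, 4.96 and 5.09 in N1IC, against 4.97, 7.34 and 7.94 in WT. WT replicate 1 thus matched the N1IC arrays, while the other WT arrays were at least 2.25 log2 units above all of them. It differed between groups by -1.75 ± 0.74 (SE, n = 3, limma adjusted p = 0.203), and without WT replicate 1 it was -2.64 (limma adjusted p = 0.00293). Over all alternatives the adjusted p of Lta lay between 0.00293 and 0.42.

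WT replicate 1 was also the lowest WT array in the summed intensity of natural killer markers, at 1309 against 3471 and 2853 on WT replicates 2 and 3. For dendritic cell markers, of which 1 of 6 fell in N1IC, where 8.31% of all genes fell, the sums were 7510 to 9871 in N1IC, against 10252, 34594 and 34415 in WT. In the summed T-lineage, B-lineage, macrophage, neutrophil, mast cell and erythroid markers WT replicate 1 was the lowest WT array as well. For progenitor markers it was the highest, at 37913 against 35745 and 36506 on WT replicates 2 and 3. The part of any of these cell types in the levels of Lta and Tnfsf13b was not tested. Ltb, the membrane partner of Lta, gave 9.68, 9.81 and 9.38 in N1IC and 9.42, 9.54 and 9.76 in WT, with a log2 fold change of 0.05 and a 95% interval of -0.31 to 0.41.

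Tnfsf13b encodes BAFF, a survival factor of B cells. It stood at 6.02, 6.51 and 5.68 in N1IC, against 6.77, 8.02 and 7.48 in WT, without overlap, with a log2 fold change of -1.35 ± 0.36 (SE, n = 3, limma adjusted p = 0.0669). All 3 probe sets were lower in N1IC, and without WT replicate 1 the log2 fold change was -1.68 (limma adjusted p = 0.0276). Over all alternatives that adjusted p lay between 0.0276 and 0.177. Tnfsf9, a costimulatory ligand, named after its values were seen because its groups did not overlap, stood at 6.67, 5.92 and 7.33 in N1IC, against 7.83, 7.90 and 8.62 in WT. Its log2 shift was -1.47 (limma adjusted p = 0.0679, and 0.0349 to 0.382 over all alternatives), and it passed in 3 of 18 alternatives. The remaining ligands Tnfsf4, Tnfsf8, Cd70 and Cd40lg lay between 4.38 and 6.64 on all arrays and had log2 fold changes between -0.25 and 0.57.

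**Figure D2:**
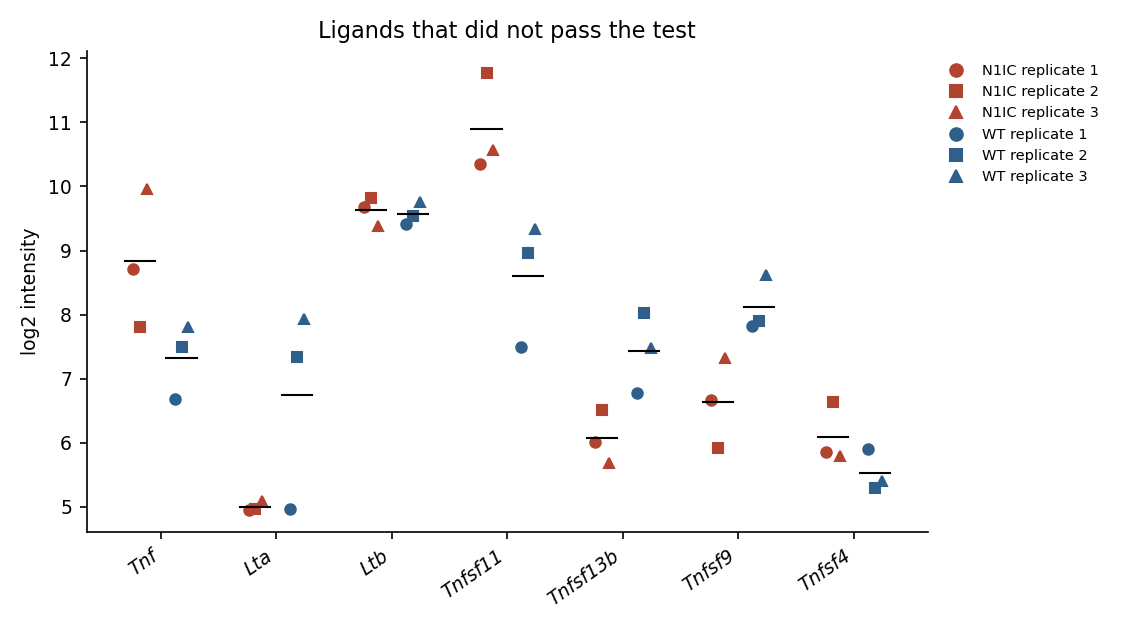
Log2 intensity (vertical axis) of 7 ligands that did not pass the test, by array, N1IC in red left of WT in blue, with marker shapes for replicates 1 to 3 and a black line at each group mean. Lta separates WT replicate 1 from the other WT arrays, Ltb is level between groups, and Tnfsf11 is high in N1IC with a spread of over 1 log2 unit in each group.

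Among the 6 death receptors, 2 fell and none rose, where 8.31% of all genes fell and 3.47% rose. Tnfrsf1a encodes the widely expressed death-domain receptor for TNF. It stood at 9.44, 9.22 and 9.77 in N1IC, against 10.76, 10.85 and 10.90 in WT. The WT arrays were within 0.14 log2 units of each other, and all N1IC arrays were lower. The difference in log2 level was -1.36 ± 0.15 (SE, n = 3, limma adjusted p = 0.00446). It remained between -1.51 and -1.23 with each array left out. The call was lost when sex was fitted and under no other alternative, at -1.37 (limma adjusted p = 0.059, and 0.00244 to 0.059 over all alternatives).

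Fas, the receptor of Fasl, moved opposite to its ligand. It stood at 5.99, 5.77 and 5.49 in N1IC, against 6.41, 7.53 and 7.15 in WT, so that only WT replicate 1 came near the N1IC arrays. Between groups the log2 shift was -1.28 ± 0.30 (SE, n = 3, limma adjusted p = 0.0464), close to the threshold. Without WT replicate 1 it was -1.59 (limma adjusted p = 0.011), and leaving out any of the other 5 arrays ended the call, with adjusted p up to 0.136 by limma. Fitting sex ended it too, at -1.78 (limma adjusted p = 0.0765, and 0.011 to 0.136 over all alternatives), as did the replicate block, log2(value + 16) and separate tests of each probe set.

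The other death receptors did not pass. Tnfrsf21, a receptor that carries a death domain and is known in neurons and lymphocytes, spread as widely within groups as between them, at 9.95, 10.61 and 11.19 in N1IC, against 11.10, 9.93 and 10.94 in WT. Tnfrsf10b, the death receptor for TRAIL, gave 5.20, 4.90 and 6.0 in N1IC and 5.46, 5.37 and 5.74 in WT, with a log2 fold change of -0.16 and a 95% interval of -0.86 to 0.55. Ngfr, the low-affinity neurotrophin receptor, had a log2 fold change of 0.02 and Tnfrsf25, a receptor of T cells, one of -0.22.

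Of the 14 receptors that bind TRAF proteins, 3 fell and none rose, where the shares of all genes were 8.31% lower and 3.47% higher. Tnfrsf13c encodes the BAFF receptor, through which B cells receive their survival signal. It stood at 8.09, 7.62 and 8.14 in N1IC, against 10.81, 10.64 and 10.91 in WT, a gap of at least 2.50 log2 units between any arrays of the groups. The log2 fold change was -2.84 ± 0.16 (SE, n = 3, 95% interval -3.23 to -2.44, limma adjusted p = 0.000685). It remained between -2.93 and -2.67 under every alternative tried, with adjusted p between 0.000375 and 0.0158 by limma. The B-lineage markers given above fell with it, among them Ebf1 and Blnk, and their part in the change was not tested.

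Tnfrsf13b, another receptor of BAFF, fell less. It stood at 10.86, 11.03 and 10.81 in N1IC, against 11.38, 11.38 and 11.32 in WT, with tight groups and a log2 fold change of -0.46 ± 0.09 (SE, n = 3). Its adjusted p was 0.0248 by limma, and of the 6 fits without 1 array only that without N1IC replicate 2 kept the call (values from -0.52 to -0.41, adjusted p up to 0.0859 by limma). It was lost with sex fitted, at -0.48 (limma adjusted p = 0.17, and 0.0127 to 0.17 over all alternatives), and with the replicate block. Tnfrsf17, the receptor of this group that plasma cells use, had a log2 fold change of -0.33 and a 95% interval of -1.01 to 0.36.

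Ltbr encodes lymphotoxin beta receptor, which signals through NF-kB in the building of lymphoid organs. It stood at 8.92, 9.03 and 9.41 in N1IC, against 9.78, 9.96 and 9.96 in WT. The N1IC arrays were all lower, by a log2 fold change of -0.78 ± 0.14 (SE, n = 3, limma adjusted p = 0.0227). The call was lost without N1IC replicate 1, N1IC replicate 2, WT replicate 2 or WT replicate 3, with values from -0.93 to -0.69 over the 6 fits and adjusted p up to 0.0785 by limma. Fitting sex gave -0.85 for Ltbr (limma adjusted p = 0.144, and 0.0134 to 0.144 over all alternatives).

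Of the 11 TRAF-binding receptors that did not pass, 5 did not overlap between groups, where this held for 3823 of the 16049 genes that did not pass. Tnfrsf1b, 1 of these 5 and the receptor for TNF that lacks a death domain, stood at 9.85, 9.94 and 9.88 in N1IC, against 10.41, 10.39 and 10.05 in WT, with a log2 fold change of -0.39 ± 0.12 (SE, n = 3, limma adjusted p = 0.093). A dimmer Tnfrsf1b probe set went the other way, at 0.09. Tnfrsf18, a costimulatory receptor of regulatory T cells, stood at 9.28, 9.49 and 9.47 in N1IC, against 9.74, 9.67 and 9.80 in WT, with a log2 fold change of -0.33 (limma adjusted p = 0.0751). Tnfrsf4, a costimulatory receptor of activated T cells named after its values were seen, stood at 7.14, 6.77 and 7.10 in N1IC, against 6.26, 6.50 and 6.56 in WT. Its log2 fold change was 0.56 ± 0.14 (SE, n = 3, limma adjusted p = 0.0533, and 0.0395 to 0.323 over all alternatives), and it passed in 6 of its 18 alternatives.

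Cd40, the receptor by which antigen-presenting cells receive help from T cells, gave 7.5, 8.0 and 7.33 in N1IC and 7.83, 8.48 and 8.23 in WT, with overlap and a log2 fold change of -0.57. All 3 of its probe sets were lower in N1IC, and none passed on its own. Tnfrsf14 varied from 5.08 to 6.51 in N1IC and from 4.68 to 6.60 in WT, with an interval of -1.19 to 1.70 for the log2 fold change. Tnfrsf8, Tnfrsf9, Tnfrsf11a, Tnfrsf12a and Tnfrsf19 had log2 fold changes between 0.12 and 0.84, and the smallest adjusted p among them was 0.132 by limma, for Tnfrsf8.

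Decoy receptors were measured in 3 genes. Tnfrsf23, which in the mouse binds TRAIL without a working death domain, stood at 5.51, 6.90 and 6.26 in N1IC, against 4.53, 4.58 and 4.63 in WT. The WT arrays lay within 0.10 log2 units of each other near the lower quartile of the arrays, and all N1IC arrays were higher, with a spread of 1.39. N1IC minus WT came to 1.64 ± 0.33 (SE, n = 3, limma adjusted p = 0.0303). The call was lost without N1IC replicate 3 or any 1 of the WT arrays, with values from 1.30 to 2.00 over the 6 fits and adjusted p up to 0.0944 by limma. Fitting sex gave 1.64 for Tnfrsf23 (limma adjusted p = 0.205, and 0.0125 to 0.205 over all alternatives), and the replicate block ended the call too.

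Tnfrsf22, the neighbouring decoy receptor for TRAIL, gave 7.10, 7.46 and 8.02 in N1IC and 7.5, 7.29 and 7.71 in WT, with a log2 fold change of 0.03 and a 95% interval of -0.58 to 0.64. Its probe sets differed: a second gave 6.85, 8.12 and 7.80 in N1IC, against 7.47, 6.42 and 6.30 in WT, a log2 fold change of 0.85 (limma adjusted p = 0.29), and the mean of all its probe sets gave 0.31. The Tnfrsf22 and Tnfrsf23 genes are near copies of each other, and 1 further probe set annotated to both was not used, and whether their probe sets share signal was not tested. Tnfrsf11b, the soluble decoy for RANKL, had a log2 fold change of -0.06. Tnfsf13os, the opposite-strand RNA, had one of -0.08.

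**Figure D3:**
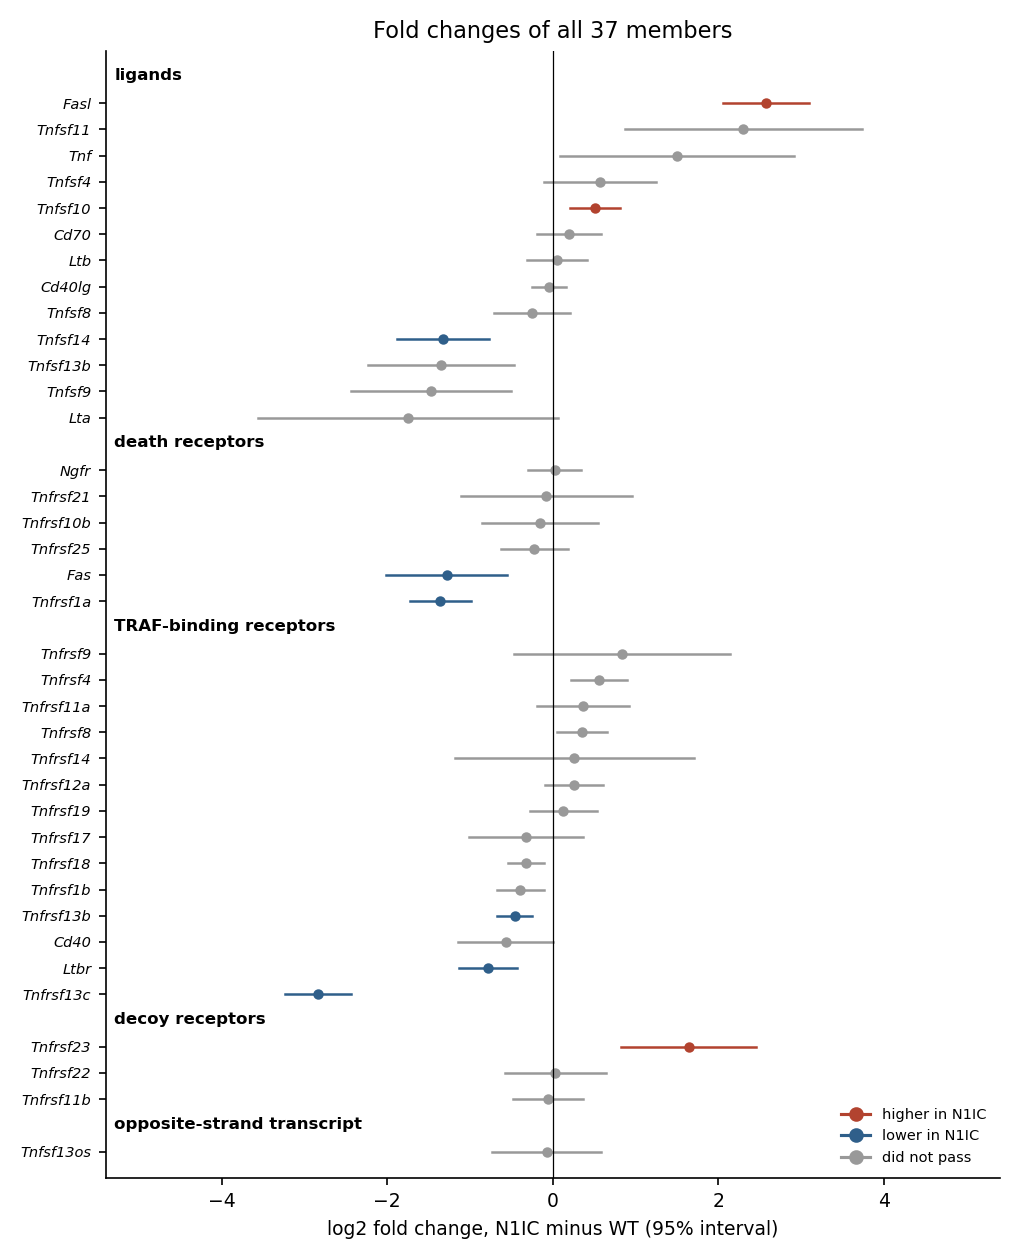
Log2 fold change (horizontal axis, N1IC minus WT) of all 37 members with 95% intervals from limma, grouped by role and sorted within each role. Red marks the 3 members that rose, blue the 6 that fell and grey the 28 that did not pass; Tnfsf11 and Tnf lie far to the right with wide intervals.

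Ligands were next set beside their receptors, over 19 known pairs with both genes measured. In 2 pairs both genes passed. Fasl rose while Fas fell, at 2.58 and -1.28, and Tnfsf14 and Ltbr both fell, at -1.32 and -0.78. In 7 pairs 1 gene passed. Tnfrsf1a fell, while its ligands Tnf and Lta stood at 1.5 and -1.75 without passing. Tnfrsf13c and Tnfrsf13b fell, with their shared ligand Tnfsf13b at -1.35. Tnfsf10 rose, with its death receptor Tnfrsf10b at -0.16. Ltb stood at 0.05 beside the fall of Ltbr, and Tnfrsf14 at 0.26 beside that of Tnfsf14. In the other 10 pairs neither gene passed, among them Tnfsf11 with its receptor Tnfrsf11a, at 2.30 and 0.36. The 19 pairs left out Tnfsf10 with its decoy receptors. Of these, Tnfrsf23 rose as Tnfsf10 did, at 1.64, and Tnfrsf22 stood at 0.03 without passing.

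**Figure D4:**
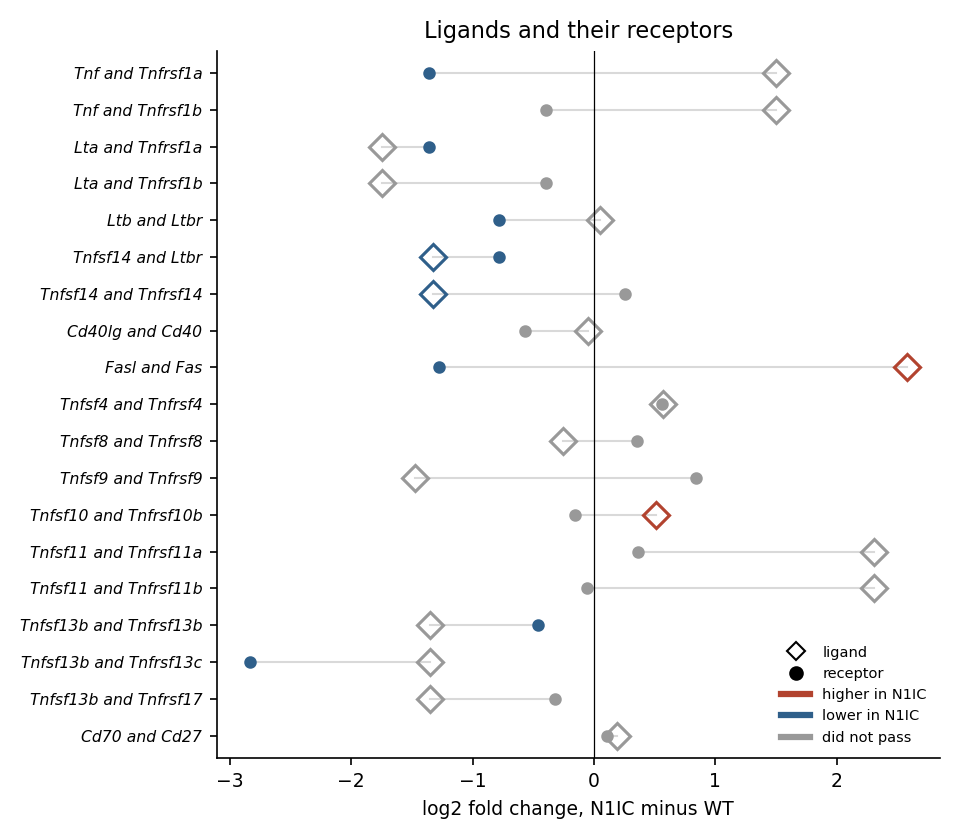
Log2 fold change (horizontal axis, N1IC minus WT) of the ligand (open diamond) and the receptor (filled circle) in 19 ligand-receptor pairs, red for higher in N1IC, blue for lower and grey for not passing. Fasl and Fas lie far apart on opposite sides of 0, and Tnfsf14 and Ltbr lie on the same side.

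Several members are neighbours in the genome, and position was not used to choose them. By RefSeq gene order in GRCm38.p6, 9 pairs of members follow each other with at most 2 protein-coding genes between them. Ltbr and Tnfrsf1a, on chromosome 6, were the only pair of which both passed, both lower. In 5 of the 9 pairs the log2 fold changes had opposite signs. Tnf stood at 1.5 between Ltb at 0.05 and Lta at -1.75 on chromosome 17, and Cd70 stood at 0.19 between Tnfsf9 at -1.47 and Tnfsf14 at -1.32 on the same chromosome. Tnfrsf4 and Tnfrsf18, on chromosome 4, stood at 0.56 and -0.33.

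The sequences before the start sites are shown for Fasl and Tnfrsf13c, which had the largest called changes in each direction, and for Fas and Tnfrsf23, the only called members whose window held the core motif of RBPJ, the protein that brings Notch to DNA. Windows are the 250 bases before the start site that the RefSeq promoter table uses, 5′ to 3′ on the gene's strand, build GRCm38.p6. RefSeq lists several transcripts of Fas and of Tnfrsf23. The Tnfrsf23 window lies wholly inside the outer bounds of that gene, and the Fas window ends just past the outer start of that gene. Capitals mark TGGGAA on either strand.
Fasl, chr1:161788496-161788745, minus strand: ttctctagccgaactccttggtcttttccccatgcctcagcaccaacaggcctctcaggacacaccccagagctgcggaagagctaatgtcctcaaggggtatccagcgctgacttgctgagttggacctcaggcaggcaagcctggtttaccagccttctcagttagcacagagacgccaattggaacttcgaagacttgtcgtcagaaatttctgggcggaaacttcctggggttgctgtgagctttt
Tnfrsf13c, chr15:82224381-82224630, minus strand: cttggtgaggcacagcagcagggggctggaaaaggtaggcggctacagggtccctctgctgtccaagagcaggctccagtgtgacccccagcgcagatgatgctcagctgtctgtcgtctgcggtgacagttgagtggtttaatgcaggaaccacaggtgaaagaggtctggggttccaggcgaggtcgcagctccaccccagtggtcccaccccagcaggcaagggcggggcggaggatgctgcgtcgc
Fas, chr19:34290409-34290658, plus strand: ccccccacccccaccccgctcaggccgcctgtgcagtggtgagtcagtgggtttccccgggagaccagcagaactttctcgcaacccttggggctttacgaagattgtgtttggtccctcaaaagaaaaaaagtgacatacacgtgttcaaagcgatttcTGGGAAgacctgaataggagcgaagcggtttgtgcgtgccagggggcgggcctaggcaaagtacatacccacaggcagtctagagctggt
Tnfrsf23, chr7:143685876-143686125, minus strand: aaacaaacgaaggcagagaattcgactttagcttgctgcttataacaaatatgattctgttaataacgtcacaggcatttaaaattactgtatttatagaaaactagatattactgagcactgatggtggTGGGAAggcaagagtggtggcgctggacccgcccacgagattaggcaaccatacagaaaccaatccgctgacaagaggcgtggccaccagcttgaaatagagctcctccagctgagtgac

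Counted from the start site of its window, the match lay 90 to 85 bases before it in Fas and 120 to 115 bases before it in Tnfrsf23. RefSeq windows were matched for 28 of 37 members, with 32 windows in all. TGGGAA occurred in 5 of these 32 windows, or 15.6%, and in 21.6% of all 32851 windows of the same length. Of the called members, 1 that rose and 1 that fell held it in their window. A pattern for NF-kB, GGGA and TTCC with any pair of bases between them on either strand, occurred in 1 of the 32 windows, that of Ltb, and in 1.21% of all windows. A match describes letters only, and these windows leave out distant elements.

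Signalling genes downstream of the receptors were set beside the members. Of 21 measured adaptors and death-signalling genes, none rose and none fell by limma, where 3.47% of all genes rose and 8.31% fell. In this list 7 genes had an unadjusted p under 0.05, where 26.6% of all genes did. Over the 21 genes the log2 fold changes lay between -0.71 and 0.35, with a median of -0.05, against -0.01 over all genes. The brightest were Map3k5, a stress kinase, at 12.34 ± 0.07 in N1IC and 12.40 ± 0.13 in WT (SD, n = 3), and Cyld, an enzyme that removes ubiquitin and restrains NF-kB, at 11.99 ± 0.05 in N1IC and 12.04 ± 0.10 in WT. The groups did not overlap in 8 of the 21 genes, or 38.1%, where 32.8% of all genes did not, and these were named after their values were seen. N1IC lay above WT for Tradd, the adaptor of Tnfrsf1a, Tank and Map3k7, and below WT for Fadd, which links death receptors to caspases, Traf2, Traf5, Ripk3 and Map3k14, the kinase of the alternative NF-kB route. Their adjusted p lay between 0.0764 for Traf5 and 0.424 for Ripk3 by limma.

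Of 14 measured NF-kB subunits and inhibitors, 1 rose and none fell, or 7.14% called, where 11.8% of all genes were, with a median log2 fold change of 0.17. Rel, a subunit of NF-kB prominent in lymphocytes, stood at 8.95, 8.60 and 9.25 in N1IC, against 7.84, 8.03 and 8.34 in WT. Its log2 fold change was 0.86 ± 0.20 (SE, n = 3, limma adjusted p = 0.0467), and only leaving out N1IC replicate 2 kept the call among the fits without 1 array, with values from 0.71 to 1.03. Sex in the fit moved the adjusted p of Rel to 0.238 by limma (0.0344 to 0.238 over all alternatives), and separate tests of each probe set ended the call too. Tnfaip3, an enzyme that restrains NF-kB and is itself induced by TNF, named after its values were seen, stood at 11.64, 11.04 and 11.99 in N1IC, against 9.62, 10.37 and 10.64 in WT. All N1IC arrays were higher, but the adjusted p was 0.0587 by limma (0.0363 to 0.345 over all alternatives, of which 4 of 19 passed).

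Of 19 measured NF-kB target genes, 2 rose and none fell, 10.5% called, where 11.8% of all genes were, with a median log2 fold change of 0.04. Cxcl10, a chemokine that interferon also induces, stood at 10.90, 10.35 and 11.52 in N1IC, against 8.16, 8.54 and 8.88 in WT. It differed between groups by 2.40 ± 0.33 (SE, n = 3, limma adjusted p = 0.00895), and it kept its call in every fit without 1 array. Sex in the fit moved the adjusted p of Cxcl10 to 0.0967 by limma (0.00444 to 0.0967 over all alternatives). Irf1, a transcription factor of the interferon response, stood at 12.28, 11.71 and 12.45 in N1IC, against 10.99, 11.25 and 11.36 in WT. Its log2 shift was 0.94 ± 0.22 (SE, n = 3, limma adjusted p = 0.0431), and among the fits without 1 array only that without N1IC replicate 2 kept the call (0.79 to 1.16). For Irf1 the sex fit gave an adjusted p of 0.269 by limma (0.0178 to 0.269 over all alternatives), and the replicate block ended the call too. The median absolute log2 fold change was 0.185 over the adaptors and death-signalling genes and 0.28 over the NF-kB subunits and inhibitors. It was 0.40 over the NF-kB targets, against 0.16 over all genes. The plot of the pathway lists shows each gene.

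**Figure D5:**
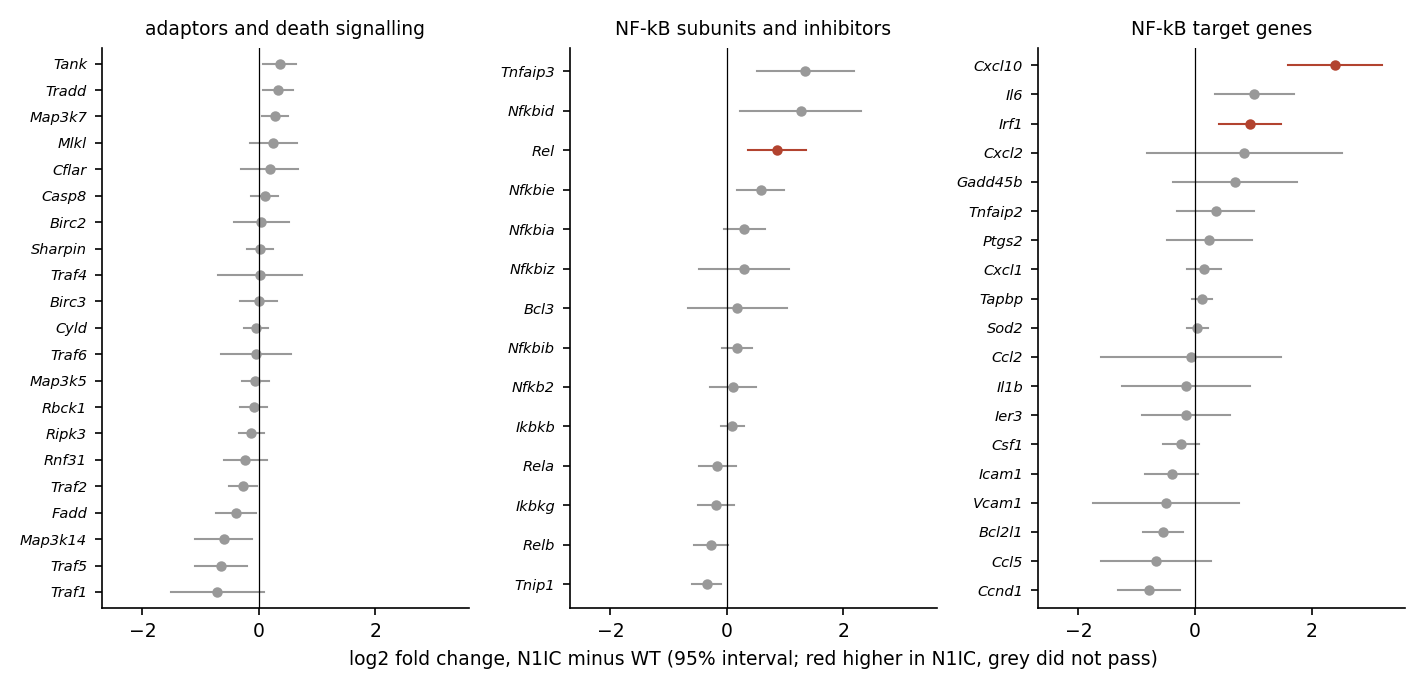
Log2 fold change (horizontal axis, N1IC minus WT) with 95% intervals from limma for 21 adaptors and death-signalling genes, 14 NF-kB subunits and inhibitors and 19 NF-kB target genes. Rel, Cxcl10 and Irf1, in red, were higher in N1IC, and grey genes did not pass.

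Replicates of a group did not vary alike over the members. WT replicate 1 was the WT array farthest from the other WT arrays in 16 of 37 members, or 43.2%, where it was so in 37.9% of all genes. WT replicate 3 was farthest in 15 members, or 40.5%, where it was so in 32.8% of all genes. N1IC replicate 2 was the farthest N1IC array in 17, or 45.9%, where it was so in 35.5% of all genes. The N1IC arrays spanned over 1 log2 unit in 8 members and the WT arrays in 9, and the largest spans were 2.15 for Tnf in N1IC and 2.97 for Lta in WT. Such spans were not counted over all genes. Of 17 members with several probe sets, 11 had all of them in 1 direction, among them the 3 called members Fasl, Tnfsf10 and Tnfsf14.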

How the data were processed

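RNA from LSK cells of 3 N1IC and 3 WT mice was amplified from 5 ng and hybridised to 1 Affymetrix array per sample, per the labels' protocols. The deposited intensity values were made with RMA, per the submitters' processing notes; the sources used here give no version or settings. The values are linear, as their range shows, and log2 was taken. Their number of arrays limits the precision, and no detection calls were used.

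Of 45101 probe sets, 34945 had 1 gene symbol, 932 several, 9160 none and 64 were controls. Symbols were checked by gene ID against RefSeq (GRCm38.p6), which held 34741 of them. The brightest probe set stood for each of 18193 genes. The main test, two-sided and without covariates, used lmFit and eBayes of limma (version 3.58.1, R version 4.3.3, with data.table version 1.17.8), with p-values adjusted by Benjamini-Hochberg over all genes, called at 0.05. The same test was also run on simulated data with independent normal noise. There it recovered 60% of 100 changes of 1 log2 unit and 86% of 100 changes of 2 log2 units, with 5 false calls. Fewer genes were changed there than were called in these data, so these percentages do not give the recovery in these data. In the main test residual degrees of freedom were 4, and the prior added 2.05. Plots used matplotlib 3.10.9 (Python 3.11.15).

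The members, lists and pairs were chosen with earlier results of these data known, so a list's counts are a description. Named with values were every called member, the 3 brightest others of each role, Tnf, Lta, Ltb, Fas, Fasl, Cd40, Tnfrsf1a and Tnfrsf1b, partners of called members, any member with opposed probe sets of which 1 passed, and from each pathway list up to 6 called genes or else the 2 brightest. Alternatives were a replicate block by mouse number, a sex term, repeated quantile normalization, median centring, the brighter 60% or 40% of genes, the mean of all probe sets, each probe set alone, an intensity trend, a robust prior, array weights, a threshold of 0.01, log2(value + 16), and leaving out each array. Separate mice are implied by the labels, and p-values set the difference of group means against the spread of these samples within groups. The 9 marker lists were described by counts and sums.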

Additional observations from a re-analysis of the deposited data

How the results depend on the processing

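Over 31 named genes and 561 gene-by-setting fits, 449 kept direction and side of the threshold, 68 lost a call, 24 gained one and 20 changed sign; every gene that changed sign had not passed. The cause of each change below was not tested, unless the setting removes genes or arrays. Deviations of same-numbered arrays from their group means correlated at -0.09, -0.07 and 0.07, and those of other combinations at -0.14 to 0.16. Such values cannot show whether the mice were paired. With the replicate number as a replicate block 1 member rose and 4 fell, against 357 and 936 of all genes. With sex as a covariate 1 member rose and 1 fell, against 116 and 333 of all genes, and no NF-kB subunit, inhibitor or target rose. At an adjusted p of 0.01, 1 member rose and 2 fell, 209 and 536 of all genes, no NF-kB subunit and 1 NF-kB target. With each array left out, 1 to 3 members rose and 2 to 7 fell (332 to 509 and 835 to 1420 of all genes), 0 to 3 NF-kB subunits and 1 to 3 targets rose, and 0 to 1 target and 0 to 1 adaptor fell. With the brighter 60% of genes 2 NF-kB subunits or inhibitors rose and 1 target fell. With the brighter 40%, 857 genes in all, 1 NF-kB subunit or inhibitor and 1 target fell. With the mean of all probe sets 1 adaptor and 2 NF-kB subunits or inhibitors rose and 1 target fell. With each probe set alone 0 and with an intensity trend 2 NF-kB subunits or inhibitors rose. Sign changes among genes that did not pass were at 0.65 with sex as a covariate and 0.049 with array weights for Tnfrsf21, and at 0.025 with the mean of probe sets for Tnfsf13os. With each array left out, values ran from -0.042 to 0.17 for Ltb, -0.070 to 0.15 for Ngfr, -0.47 to 0.076 for Tnfrsf10b, -0.24 to 0.038 for Tnfrsf11b, -0.14 to 0.83 for Tnfrsf14, -0.44 to 0.24 for Tnfrsf21, -0.22 to 0.25 for Tnfrsf22 and -0.27 to 0.24 for Tnfsf13os.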

Other observations

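Relatives of the superfamilies that carry other names were measured beside the members. Of 5 such genes 2 fell and none rose, where 8.31% of all genes fell and 3.47% rose. Edar, the receptor for ectodysplasin known from hair and tooth development, stood at 4.47, 4.92 and 4.16 in N1IC, against 6.66, 6.66 and 6.29 in WT, without overlap. Its log2 fold change was -2.02 ± 0.22 (SE, n = 3, limma adjusted p = 0.00414). Eda, the gene of its ligand, stood at 5.41, 5.46 and 5.07 in N1IC, against 5.87, 5.99 and 5.78 in WT, with a log2 fold change of -0.56 (limma adjusted p = 0.0437). Cd27, the receptor of Cd70 and a marker of early lymphoid progenitors, gave 12.66 ± 0.12 in N1IC and 12.55 ± 0.08 in WT (SD, n = 3), while Relt and Eda2r had log2 fold changes of -0.29 and -0.47 and did not pass.

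Marker lists of further blood cell types gave mixed counts. Macrophage markers rose in 2 of 8 and mast cell markers in 1 of 5, where 3.47% of all genes rose. Neutrophil markers fell in 1 of 6, where 8.31% of all genes fell. The macrophage markers that rose were C1qb and C1qc, while 3 of the 8 had negative log2 fold changes, among them Cd68 at -1.04 without passing. Cpa3 was the mast cell marker that rose, at 1.97, while 1 of the 5 had a negative log2 fold change, Ms4a2 at -1.02, without passing. Summed intensities were 1328 to 2988 in N1IC against 1364 to 2862 in WT for macrophage markers, 6631 to 9536 in N1IC against 1512 to 3402 in WT for mast cell markers, and 21049 to 29930 in N1IC against 26537 to 58896 in WT for neutrophil markers. Of 5 erythroid markers none rose and none fell by limma, also none at an unadjusted p under 0.05, with sums of 9396 to 17175 in N1IC against 5576 to 12084 in WT.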
